A study of Mus musculus with 4 samples.

Results

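Protein prenyltransferases and the enzymes that finish a prenylated CAAX protein were followed in the RNA of pseudopodia and cell bodies of NIH/3T3 cells, a mouse fibroblast line. The members were taken by gene symbol: the prenyltransferase subunits Pggt1b, Fnta, Fntb, Rabggta and Rabggtb, which are cytosolic, and the CAAX-processing enzymes Icmt, Rce1 and Zmpste24, which sit in the membrane of the endoplasmic reticulum. Every probe set (a group of short probes read as 1 value) annotated with such a symbol alone was used, which gave 12 probe sets of 45037 and 8 genes of 18193. There were 2 samples of pseudopodia and 2 of cell bodies, each hybridised to 1 Affymetrix Mouse430_2 array. All 4 came from cells kept without serum over a porous membrane with fibronectin on its underside alone, through which they extended protrusions for 1 h before a brief formaldehyde fixation. In the pseudopodia samples the cell bodies had been wiped away, and in the cell body samples the protrusions had been wiped away. No treatment or genotype separates the groups, since both are compartments of the same kind of cell. NIH/3T3 is an established line, so no primary tissue was sampled.

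Prenylation attaches an isoprenoid lipid to cysteines near the carboxyl end of a protein, which lets otherwise soluble proteins such as Ras bind membranes. Farnesyltransferase pairs the alpha subunit Fnta with the beta subunit Fntb, and geranylgeranyl transferase I (GGTase I) pairs the same Fnta with the beta subunit Pggt1b. Rab geranylgeranyl transferase pairs Rabggta with Rabggtb and modifies Rab GTPases that an escort protein presents to it. A protein that ends in a CAAX box, a cysteine followed by aliphatic residues and a last residue that guides the choice of lipid, is then clipped by Rce1 and methylated by Icmt, while Zmpste24 is the protease that matures the lamin A precursor. In moving fibroblasts the prenylated GTPases are best known for their part in adhesion, protrusion and membrane traffic.

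The deposited values are intensities on a linear scale with a floor of 20, so a value of 20 is only an upper bound. Levels of different probe sets are not comparable with each other. Comparisons below are of the same probe set, or of the same sum or mean of probe sets, between compartments. Differences are of log2(intensity + 1), pseudopodia minus cell bodies, and each gene stands for its brightest probe set. A gene was tested if its mean was at least log2 5.42, an intensity of 42.0. All 8 genes passed this filter, with 9 of their 12 probe sets, and the 3 that did not were all of Pggt1b. A level here is a share of the RNA of a compartment, so a difference cannot tell more copies of an RNA from less of the rest. Nothing states that the samples of a compartment came from separate cultures, so errors and p-values reflect the variation of the arrays at hand, which could be technical. How many cells extended a protrusion, and how evenly an RNA was spread over the protrusions, cannot be told from such pooled material. The pseudopodia arrays had a higher log2 ratio of 3′ to 5′ signal for the actin control, 0.56 and 0.65 against 0.37 and 0.36 on the cell body arrays. That of the Gapdh control was also higher, at -0.075 and -0.066 in pseudopodia against -0.095 and -0.098 in cell bodies. The 18S control ran the other way, at 2.46 and 1.35 in pseudopodia against 2.77 and 3.06 in cell bodies, and the pyruvate carboxylase control overlapped, at 2.61 and 2.32 in pseudopodia against 2.54 and 2.25 in cell bodies. The part of these ratios in the results was not tested.

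The enzymes did not move together. Pggt1b was higher in pseudopodia, Rabggta and the 3 CAAX-processing enzymes were lower, and Fnta, Fntb and Rabggtb lay closer to 0. In limma's fit of all 11320 genes, 4 of the 8 passed an adjusted p of 0.05, namely Pggt1b above 0 and Icmt, Rabggta and Rce1 below it, where 14.6% of all tested genes passed, 5.92% higher and 8.69% lower in pseudopodia. The enzymes were chosen with this contrast known, so their calls and differences are a description and nothing is read from the count. The arrays of the compartments did not overlap for 7 of the 8 genes, Fntb being the exception, where 60.8% of all tested genes had no overlap. The median difference of the 8 genes was -0.47, beside -0.0020 over all tested genes. With each probe set fitted on its own, 2 of 9 passed, those of Pggt1b and Icmt, where 11.7% of 22519 probe sets passed. With any 1 array left out, limma called 0 of the 8 genes and 0 of all genes, with 4 or 5 of the 8 at an unadjusted p under 0.05. When dim genes were kept in, it called 0 of the 8 and 2 of all 18193 genes, with 6 of the 8 at an unadjusted p under 0.05.

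**Figure D1:**
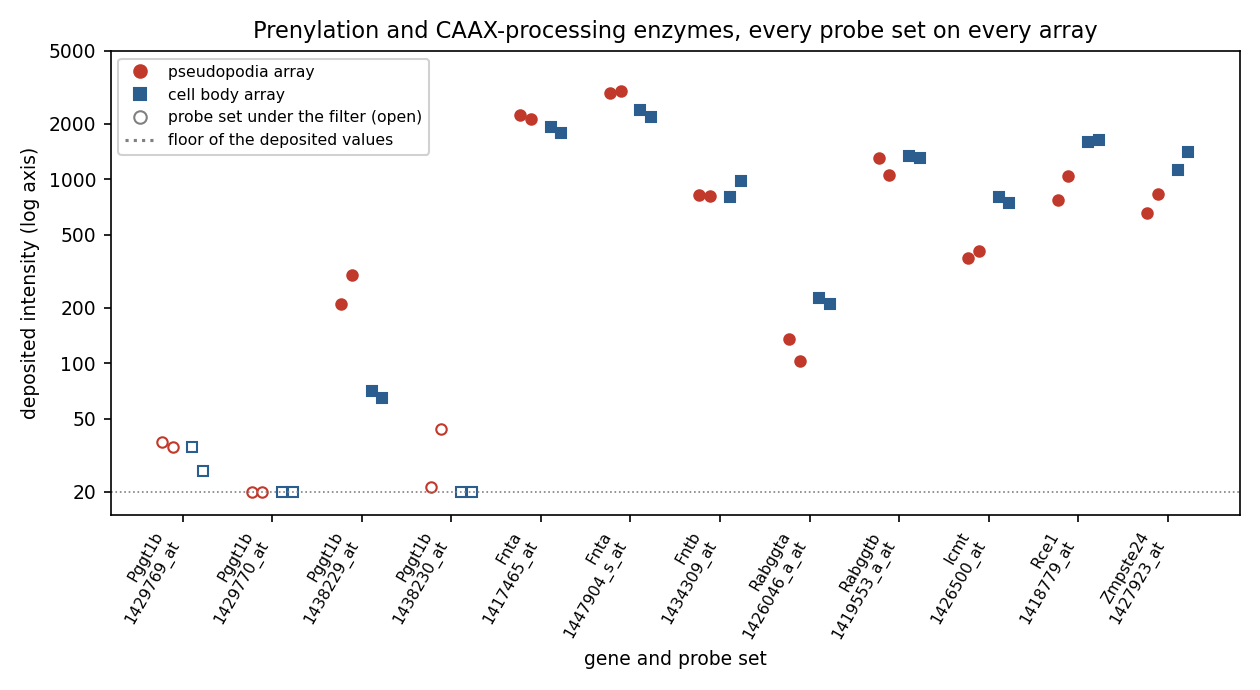
Deposited intensity (log axis) of the 12 probe sets on each array, 2 pseudopodia arrays (red circles, left) and 2 cell body arrays (blue squares, right) a probe set, with open symbols for the 3 probe sets under the filter. The red points stand above the blue ones at 1438229_at of Pggt1b and below them at Rabggta, Icmt, Rce1 and Zmpste24.

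Pggt1b encodes the beta subunit that gives GGTase I its choice of lipid and substrate. Its brightest probe set, 1438229_at, read 211 and 301 on the pseudopodia arrays, against 71.0 and 64.5 on the cell body arrays. The lower pseudopodia array thus lay well above the higher cell body array, although the pseudopodia arrays were 0.51 apart on the log2 scale and the cell body arrays 0.14. The difference was 1.88 (SE 0.21), or 3.68-fold, and it was higher than that of nearly all other genes, at percentile 99.9 of the 11320 differences. Set array by array, the 4 differences ran between 1.56 and 2.20.

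The other 3 probe sets of Pggt1b were dim. The probe set 1429769_at read 37.2 and 34.9 in pseudopodia, against 35.1 and 26.0 in cell bodies, a difference of 0.25 with overlapping arrays. The probe set 1438230_at, annotated from the same sequence record as the brightest one, read 21.1 and 43.7 in pseudopodia and lay at the floor of 20 on both cell body arrays. It was at least 1.52-fold higher in pseudopodia, a bound carried by 1 of the arrays. The last one, 1429770_at, read 20 on each of the 4 arrays and says nothing of direction. The size for Pggt1b therefore rests on 1 probe set, and averaging its 4 probe sets put the gene under the filter.

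Fnta, the alpha subunit shared by farnesyltransferase and GGTase I, was slightly higher in pseudopodia at both of its probe sets. The probe set 1447904_s_at, an array design class that can match several transcripts, read 2946 and 3028 in pseudopodia, against 2383 and 2191 in cell bodies. The probe set 1417465_at read 2228 and 2123 in pseudopodia, against 1918 and 1783 in cell bodies. The arrays of the compartments did not overlap at either, with differences of 0.39 (SE 0.13) and 0.23 (SE 0.14), and neither passed the threshold. The first difference equals 1.31-fold, far below that of Pggt1b, its partner in GGTase I.

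Fntb, the beta subunit of farnesyltransferase and the counterpart of Pggt1b, did not separate the compartments. It read 819 and 806 in pseudopodia, against 797 and 975 in cell bodies, so that the pseudopodia arrays fell between the cell body arrays. Its difference was -0.12 (SE 0.16), with a 95% confidence interval of -0.52 to 0.29, which leaves room for a modest change either way. The direction was set by cell body replicate 2, without which the difference was 0.028. The beta subunits that compete for Fnta thus stood far apart in difference, at 1.88 for Pggt1b and -0.12 for Fntb, a contrast for which no test was run because the genes were picked with these values known.

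The subunits of Rab geranylgeranyl transferase differed from each other as well. Rabggta, the alpha subunit, read 136 and 103 in pseudopodia, against 225 and 209.9 in cell bodies. Both pseudopodia arrays lay clearly below both cell body arrays, with a difference of -0.87 (SE 0.18), which is 1.83-fold higher in cell bodies. Rabggtb, the catalytic beta subunit, read 1298 and 1058 in pseudopodia, against 1339 and 1309.5 in cell bodies. Its arrays did not overlap, but pseudopodia replicate 1 came within 0.012 on the log2 scale of the nearest cell body array, and the difference was -0.18 (SE 0.16), with a 95% confidence interval of -0.58 to 0.23. Without pseudopodia replicate 2 it was -0.028.

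The CAAX-processing enzymes were all lower in pseudopodia, by amounts close to each other. Icmt, the methyltransferase that caps the prenylated cysteine, read 374 and 405 in pseudopodia, against 798 and 746 in cell bodies. The arrays of each compartment lay close together, 0.11 apart on the log2 scale in pseudopodia and 0.096 in cell bodies, and the difference was -0.99 (SE 0.13), or 1.98-fold higher in cell bodies. Rce1, the protease that removes the last residues of the CAAX box, read 768 and 1036 in pseudopodia, against 1601 and 1642 in cell bodies. The pseudopodia arrays were 0.43 apart on the log2 scale, against 0.037 between the cell body arrays, yet both were lower, with a difference of -0.86 (SE 0.19) and 1.82-fold more in cell bodies.

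Zmpste24, the metalloprotease that cuts farnesylated prelamin A, read 653 and 836 in pseudopodia, against 1128 and 1406 in cell bodies. No array overlapped, and its difference was -0.77 (SE 0.20), or 1.70-fold higher in cell bodies, but it did not pass the threshold, with arrays of each compartment 0.36 and 0.32 apart. Array by array, the differences ran between -1.09 and -0.88 for Icmt, between -1.10 and -0.63 for Rce1 and between -1.11 and -0.43 for Zmpste24. On the scale of all tested genes, the 3 enzymes and Rabggta stood at percentiles 6.22 to 9.01. Each of the 4 rests on the 1 probe set the gene has.

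**Figure D2:**
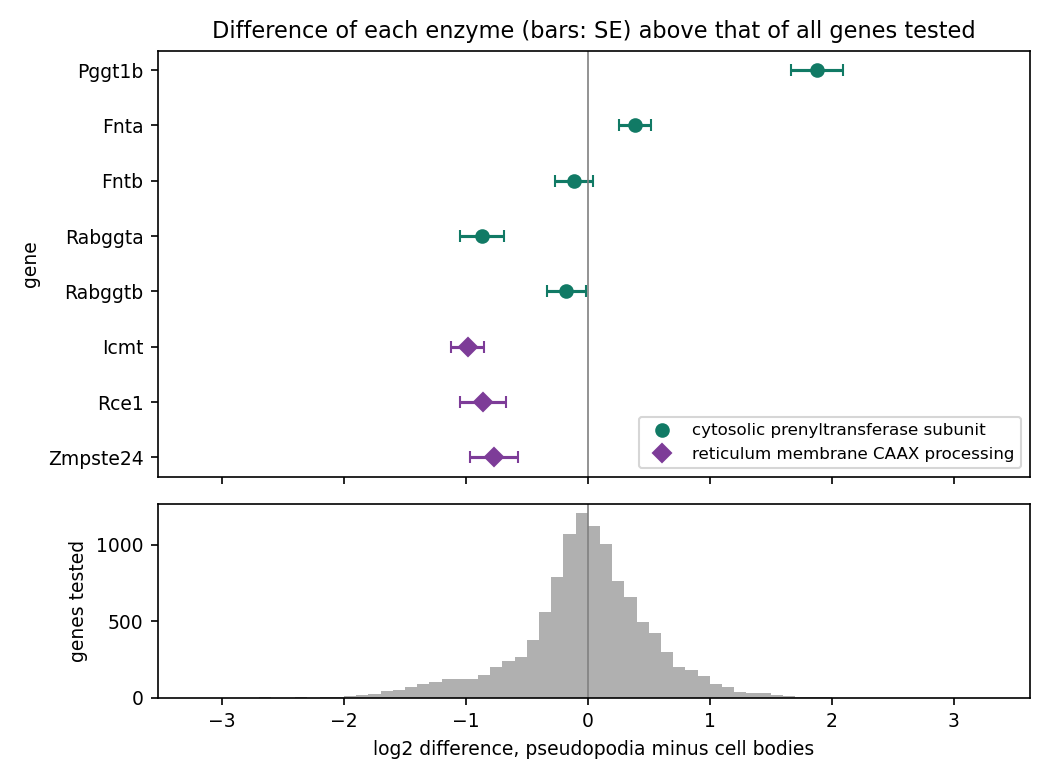
Log2 difference of each gene (upper panel; points with bars for the SE; circles for prenyltransferase subunits, diamonds for CAAX-processing enzymes) over the distribution of differences of the 11320 tested genes (lower panel, number of genes in bins of 0.1). Pggt1b lies far to the right at 1.88, and the 3 CAAX-processing enzymes lie together with Rabggta between -0.99 and -0.77.

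The processing was then changed 1 choice at a time. Over 12 alternatives that gave a value, the difference of Pggt1b lay between 1.62 and 2.14. Over 13 alternatives that of Icmt lay between -1.04 and -0.93, that of Rce1 between -1.08 and -0.65, that of Rabggta between -1.07 and -0.67 and that of Zmpste24 between -0.95 and -0.59. These 5 genes kept their sign under every alternative that gave a value, as did Fnta and Rabggtb, while Fntb turned in 1. Pggt1b passed the threshold under 7 of its 12 alternatives. Of the 13 alternatives, Icmt passed under 8, Rce1 and Rabggta under 7 each and Zmpste24 under 4. With quantile normalization, Rce1 and Rabggta lost their calls, which left Pggt1b above 0 and Icmt below it.

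**Figure D3:**
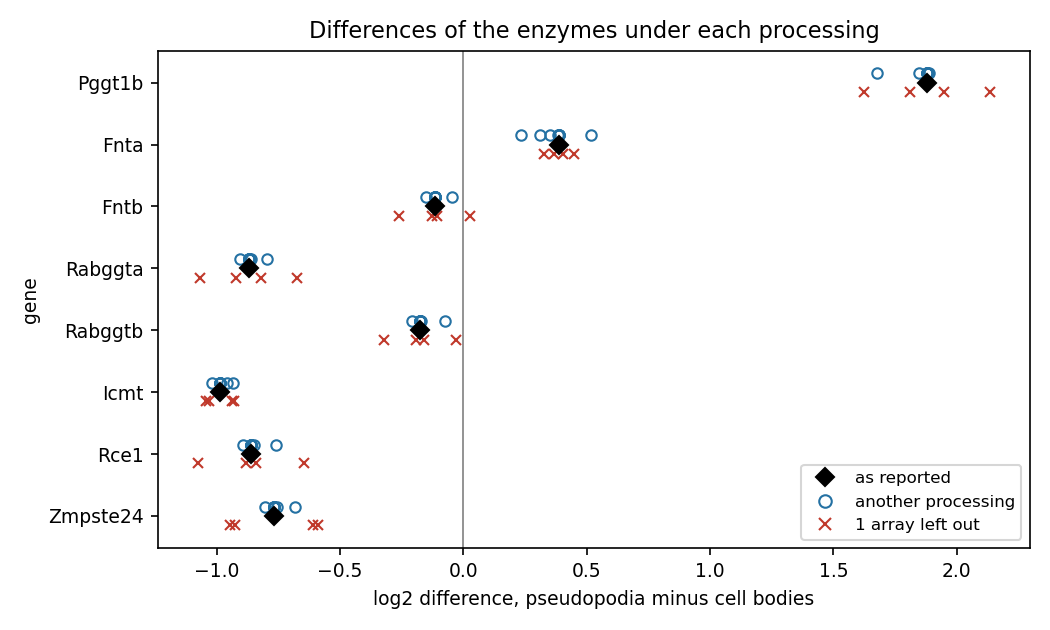
Log2 difference of each enzyme as reported (black diamonds), under other processing (open circles) and with 1 array left out (crosses). Pggt1b stays above 1.6, Icmt, Rce1, Rabggta and Zmpste24 stay below -0.5, and Fntb has a value above 0 with 1 array left out.

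The genes whose pattern over the 4 arrays was most like that of Pggt1b, by the Euclidean distance between log2 values centred on each gene's mean, were Rasa1, Ammecr1 and Glmn, at distances of 0.10, 0.16 and 0.27. They were the nearest of 11319 other tested genes, over only 4 arrays. Rasa1, a GTPase-activating protein of Ras, read 304 and 469.7 in pseudopodia, against 112 and 96.3 in cell bodies. Ammecr1 read 168 and 219 in pseudopodia, against 50.1 and 43.9 in cell bodies. Glmn, which encodes glomulin, an inhibitor of cullin-RING ubiquitin ligases, read 163 and 213 in pseudopodia, against 65.4 and 50.6 in cell bodies. All 3 shared with Pggt1b a pseudopodia replicate 2 above pseudopodia replicate 1 and a cell body replicate 2 below cell body replicate 1, and being chosen for likeness they carry no test.

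The prenyl donors are made by the mevalonate pathway, and 3 of its 7 tested genes rose in pseudopodia while 0 fell, with a median difference of 0.18. Over all tested genes 5.92% were higher and 8.69% lower, with a median of -0.0020, and the counts of this and the following lists stand beside those shares as a description. Ggps1, the synthase of geranylgeranyl diphosphate, which GGTase I and the Rab enzyme use, read 167 and 239.8 in pseudopodia, against 84.7 and 59.0 in cell bodies. It rose by 1.49 (SE 0.27, limma adjusted p = 0.0295), and its other 2 tested probe sets had differences of 0.32 and 0.74, neither past the threshold. The mean of its probe sets gave 0.95. Hmgcs1, the synthase that opens the pathway towards mevalonate, rose by 0.90 (SE 0.13, limma adjusted p = 0.0206), with 3 other probe sets above 0 and 1 at -0.39, and the mean of its probe sets gave 0.40 and did not pass. Idi1, the isomerase that makes the reactive isoprenoid unit, rose by 0.76 (SE 0.14, limma adjusted p = 0.0303). Fdps, which makes the farnesyl donor, read 4219.7 and 3563 in pseudopodia, against 5254 and 4315 in cell bodies, with a difference of -0.30 (SE 0.17, limma adjusted p = 0.319).

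Of 7 tested genes of other enzymes that draw on the same isoprenoid diphosphates, limma called 0, with 1 at an unadjusted p under 0.05, and their median was 0.024. Fdft1, which commits farnesyl diphosphate to squalene, had a difference of -0.07 (SE 0.13). Among the 7, the differences ran between -0.07 and 0.58.

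Escorts and carriers of prenylated proteins, with a factor of their turnover, made up 12 tested genes, of which 1 rose and 1 fell, with a median of 0.17. With so few genes, 1 call each way is near the 5.92% higher and 8.69% lower of all tested genes. Chm, the Rab escort protein that brings Rab GTPases to Rabggta and Rabggtb, read 368 and 319.7 in pseudopodia, against 133 and 142 in cell bodies. It rose by 1.31 (SE 0.14, limma adjusted p = 0.0166), and its other probe set had a difference of 1.31 as well, also past the threshold with each probe set fitted on its own. Chm thus went up while Rabggta was lower and Rabggtb lay close to 0. Pcyox1, the lysosomal oxidase that breaks down prenylcysteine, fell by 1.40 (SE 0.19, limma adjusted p = 0.0189), reading 653 and 719 in pseudopodia, against 2087 and 1563 in cell bodies. Its other probe set had a difference of -1.31. Gdi2, which keeps prenylated Rab proteins soluble, had a difference of 0.34 (SE 0.14, limma adjusted p = 0.171).

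Messages of proteins that receive a prenyl group were read by the enzyme that modifies them. Of 21 tested substrates of GGTase I, 2 rose and 0 fell, with a median of 0.24, where 5.92% of all tested genes were higher, so the rises are near that share. Rala, a Ras-like GTPase of exocytosis, read 1319.8 and 1406 in pseudopodia, against 821 and 666 in cell bodies, and rose by 0.88 (SE 0.16, limma adjusted p = 0.0308). Rap1a, a GTPase of integrin adhesion, read 1502 and 1421 in pseudopodia, against 764 and 857 in cell bodies, and rose by 0.85 (SE 0.14, limma adjusted p = 0.0247). The other tested probe set of each was also higher, with differences of 1.16 for Rala and 1.14 for Rap1a. Rhoa, the GTPase of stress fibres, had a difference of -0.05 (SE 0.14), and its arrays overlapped.

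Of 23 tested farnesyltransferase substrates, 1 rose and 0 fell, with a median of 0.19. The count is again near the 5.92% of all tested genes that were higher. The gene that rose was Dnaja1, a farnesylated cochaperone of Hsp70, which read 1845 and 1998 in pseudopodia, against 1037 and 1149.8 in cell bodies. It rose by 0.81 (SE 0.14, limma adjusted p = 0.0270), and its other 2 tested probe sets had differences of 1.17 and 1.01. Lmna, which encodes the lamin A precursor that Zmpste24 cuts, read 4339.6 and 4131 in pseudopodia, against 5665 and 5825 in cell bodies. Its difference of -0.44 (SE 0.13, limma adjusted p = 0.0860) had the sign of that of Zmpste24 but did not pass, and its 4 other tested probe sets had differences of -0.48 to 0.017.

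Other enzymes of protein lipidation were read beside them by the place of the protein. Of 26 tested membrane-bound enzymes, 0 rose and 8 fell, with a median of -0.42, where 8.69% of all tested genes fell. Pigs and Pigt, subunits of the transamidase that attaches glycosylphosphatidylinositol anchors in the endoplasmic reticulum, fell by 1.44 (SE 0.19, limma adjusted p = 0.0183) and by 1.10 (SE 0.16, limma adjusted p = 0.0196). Pigs read 372 and 488 in pseudopodia, against 1247 and 1069.5 in cell bodies, and the mean of its probe sets, which include dim ones, gave -0.72. Of the 5 transamidase subunits, a group singled out after its values were seen, 4 fell, Gpaa1 and Pigu besides these, and Pigk had a difference of -0.40. The other 2 tested probe sets of Pigk had differences of -1.16 and -0.14, the first past the threshold with each probe set fitted on its own. Pigu lost its call, at -0.38, without probe sets that can match several transcripts. Zdhhc24, a palmitoyltransferase, fell by 1.05 (SE 0.19, limma adjusted p = 0.0318), and 4 of 18 tested Zdhhc genes fell in all. Zdhhc8 had a difference of -0.48 (SE 0.13, limma adjusted p = 0.0806).

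Of 6 tested cytosolic enzymes of protein lipidation or of the steps that precede or reverse it, 1 rose and 0 fell, with a median of 0.34. The one that rose, Metap2, is an aminopeptidase that removes the initiator methionine and attaches no lipid itself. It read 2865 and 2650.5 in pseudopodia, against 1447 and 1548 in cell bodies, and rose by 0.88 (SE 0.13, limma adjusted p = 0.0218). Nmt1, the main N-myristoyltransferase, had a difference of 0.04 (SE 0.14), with overlapping arrays. In the cycle that adds and removes palmitate on Ras, 1 of 8 tested genes fell and 0 rose, with a median of 0.050. It was Zdhhc9, the catalytic subunit of the Ras palmitoyltransferase, which fell by 0.86 (SE 0.15, limma adjusted p = 0.0290), while Abhd17a, a depalmitoylase, had a difference of 0.06 (SE 0.13). The call of Zdhhc9 is also counted among the membrane-bound enzymes above, and Lypla1 and Lypla2 are in both lists of this paragraph. Over all these lists together, with shared genes not repeated, 17 of 107 tested genes passed, 8 of them higher and 9 lower. That share is close to the 14.6% of all tested genes. With quantile normalization 24 passed, 15 of them higher and 9 lower, a shift towards rises that goes with a median of all genes of 0.053.

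**Figure D4:**
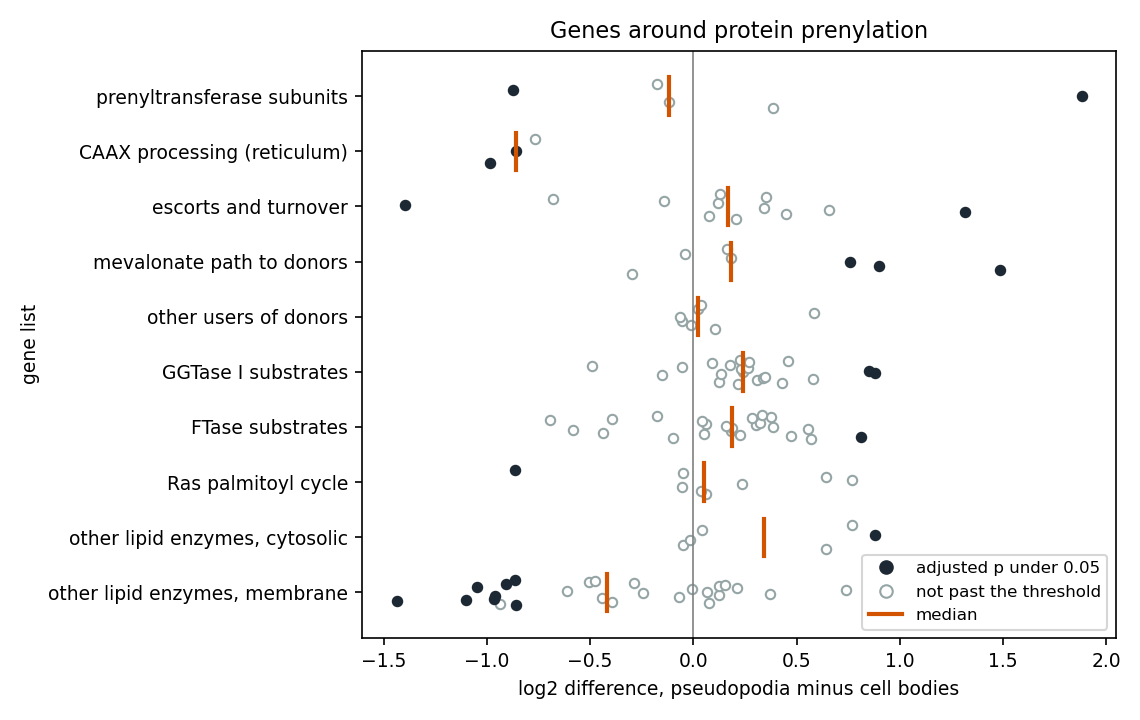
Log2 difference of each tested gene in the lists around prenylation (filled points passed the threshold, open points did not, orange bars mark the median). Membrane-bound enzymes reach furthest below 0, with 8 filled points there, while the filled points of the mevalonate genes and of the substrates all lie above 0.

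The labelled cell type was set against marker lists. Of 12 tested fibroblast markers 4 were lower in pseudopodia and 0 higher, where 8.69% of all tested genes were lower and 5.92% higher. The 4 were Col1a1, Col1a2, Pdgfra and Pdgfrb. The summed intensity of the 13 markers on the array was 60049.7 and 60208 in pseudopodia, against 84439 and 77430.3 in cell bodies. Thy1, 1 of these markers, lay at the floor on all 4 arrays. Of 10 epithelial markers 7 passed the filter, with Krt18 and Esrp1 at the floor on all arrays. Others were not dim: Krt14 read 1979.7 and 1835 in pseudopodia, against 2665 and 2093 in cell bodies, and Epcam read 248 and 348 in pseudopodia, against 604 and 471 in cell bodies. Both were read by probe sets of a class that can match several transcripts. A Krt14 probe set outside that class read 922 and 779 in pseudopodia, against 1308 and 896 in cell bodies, and Epcam had no other tested probe set. The 7 tested epithelial markers went both ways, 3 above 0 and 4 below it, and none passed the threshold. Those above 0 were Cdh1, Krt8 and Cldn3, with differences of 0.39, 0.16 and 0.11. The 10 epithelial markers had a summed intensity of 3014 and 3028 in pseudopodia, against 4046 and 3344 in cell bodies. The haematopoietic sums overlapped, at 465 and 457 in pseudopodia against 496 and 417 in cell bodies. Itgam lay at the floor throughout, but 4 of the 8 haematopoietic markers on the array passed the filter. Lyz2 read 148 and 108 in pseudopodia, against 201 and 126 in cell bodies, with a difference of -0.33. Those of Adgre1, Csf1r and Hba-a1 were 0.38, 0.073 and 0.54, and none of the 4 passed the threshold. No endothelial marker passed the filter, and Pecam1, Vwf and Emcn read 20 on every array. The fibroblast and epithelial sums were lower in pseudopodia, but the markers did not differ alike. Among bright fibroblast markers, Vim, Lgals1 and S100a4 had differences of -0.098, -0.095 and -0.12. Those of Col1a1, Col1a2 and Fn1 were -1.33, -0.69 and -0.64. Both groups are compartments of the same line, and any relation of these sums to the differences of the enzymes was not tested. Of 9 RNAs known from fibroblast protrusions 8 were higher in pseudopodia, where 5.92% of all tested genes were higher. That list was chosen in part on these samples and is therefore no separate evidence that the compartments were split.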

How the data were processed

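RNA of 2 pseudopodia and 2 cell body samples was read on 4 arrays, and the groups were taken from the sample titles. The authors deposited intensity values per probe set, with a lowest value of exactly 20 on each array. For the summary of probes and the scaling of arrays, the method is not stated in the labels or files. The deposited text records of the arrays were kept here as other values per the file headers. They list 1 chip lot, 1 scanner and 1 scan day, but 4 modules over the 4 arrays, so no recorded batch could be fitted. Median intensities ran from 40.5 to 45.6, and the number of arrays limits the precision of every value.

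Values were turned into log2(intensity + 1) without further scaling, and 64 control probe sets were left out. Each gene was its brightest probe set with 1 symbol in the platform annotation. The 11320 genes at or above the median of the probe set means were fitted in R 4.3.3 with limma 3.58.1 (linear model, moderated by eBayes, two-sided, Benjamini-Hochberg over all genes, threshold 0.05), and 22519 probe sets in the same way. The fit was tested on simulated data. The members and lists were chosen with earlier results of these data known. Named genes were all members, the called genes of each list (the 3 largest rises and falls where over 6), its brightest gene, and the 3 patterns nearest to Pggt1b. Some listed genes had no probe set of their own in the annotation and were not analysed here. A list by the CaaX end of proteins was not run, as no protein table was used here.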

Additional observations from a re-analysis of the deposited data

How the results depend on the processing

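With 1 array left out, limma called 0 genes and 0 probe sets over the whole table, among the enzymes and in the pathway lists, with 2797 to 2891 genes and 4627 to 5816 probe sets at an unadjusted p under 0.05. Without a filter the calls were 2 genes (3844 unadjusted), 73 probe sets, 0 enzymes (6 unadjusted), 0 of their probe sets (6 unadjusted) and 0 list genes (44 unadjusted), and the number tested was larger. An intensity trend in the variance gave 2564 genes, 4440 probe sets, 37 list genes and 6 probe sets of the enzymes. A mean of at least 100 gave 32 list genes and 5 probe sets of the enzymes. Quantile normalization gave 2 enzymes, median centring 5 of their probe sets and a pseudocount of 16 gave 4. The cause was not tested. The arrays share replicate numbers, but the labels state no pairing. Deviations of same-numbered arrays correlated at 0.34 across genes, and the replicate block gave 2202 genes, 5 enzymes and 5 of their probe sets. Signs turned for Fntb (-0.26 to 0.028 with 1 array left out, as a gene and as a probe set), Rhoa (0.053 with quantile normalization and -0.13 to 0.025 with 1 array left out), Fdft1 (0.059 with quantile normalization) and Nmt1 (-0.085 with the mean of its probe sets and -0.048 to 0.13 with 1 array left out), none of them called. Values near the floor of 20 limit what the dim probe sets of Pggt1b can show.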
